A study of Aspergillus nidulans with 24 samples.

Results

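This account concerns 199 genes of the filamentous fungus Aspergillus nidulans whose RNA was low in a pair of enzyme-producing strains, AbfA and 1542, after 2 h in maltose medium. They were picked from 10631 genes by 1 rule. On the log2(FPKM + 1) scale, where FPKM gives fragments relative to gene length and library size, the mean of AbfA and the mean of 1542 each had to lie at least 0.8 below the mean of the parent strain A773 and below that of a further producing strain, BglC. The 2 h values therefore chose the members, 1.87% of all genes and 2.16% of those tested at 8 h, and every 2 h value given here is a description with no test.

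The 24 libraries came from mycelium of 4 strains at 2 h and at 8 h, with 3 libraries in each of the 8 groups, which the labels call biological triplicates. A773 is the parent, carries the mutant alleles pyrG89, wA3 and pyroA4, and is called wild type in another label. The AbfA strain makes a foreign alpha-arabinofuranosidase of glycoside hydrolase family 51, BglC a beta-glucosidase of family 3, and 1542 a heat-stable mannanase of family 5. Mycelium was grown with 1% glucose and then moved to 2% maltose with 250 mM HEPES buffer, which turns on the promoter of the introduced genes, at 37 °C, with pyridoxine and uracil or uridine as needed. The labels do not say whether the producing strains keep the parent's mutant alleles, which promoter drives the introduced genes, or from how many transformants each strain was taken.

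A fungal hypha grows at its tip, where vesicles bring chitin synthases, wall polymers and secreted enzymes to the membrane. Secreted proteins are folded and first glycosylated in the endoplasmic reticulum, whose load is answered by the unfolded protein response and its transcription factor HacA. Hyphae can later form conidiophores, the stalks that carry asexual spores, under a set of developmental regulators. Several of these processes are represented among the members that have a gene symbol.

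The smallest library held 7140121 reads and the largest 32309718, as recovered from the FPKM steps, and a single read on 1 kb of gene was worth 0.0310 to 0.140 FPKM. The introduced genes marked their own strains, with mean levels at 2 h of 4194 FPKM (AbfA gene), 7236 FPKM (BglC gene) and 913 FPKM (mannanase gene), and at most 1.98 FPKM in any library of another strain. The 3 genes listed for vegetative mycelium, AN1182, act1 and gpdA, had a summed level of 4365 to 8080 FPKM in the libraries. Most of that sum came from gpdA, and whether the 3 genes are particular to mycelium was not tested. Of 10631 genes, 9201 reached 1 FPKM in at least 3 of the 24 libraries and were tested, and all 199 members were among them. That filter also counted the 2 h libraries of A773 and BglC, where the rule makes members high. With the filter on the 12 libraries at 8 h alone, 194 members and 8943 genes remained. Members lower in 1542 than in BglC at 8 h then counted 53, and those higher 0.

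The members were mostly well expressed. In A773 at 2 h their mean levels ran from 1.26 to 3145 FPKM with a median of 87.9 FPKM, where the median of all genes tested was 24.6 FPKM. A level of at least 100 FPKM was found for 95 members and 7 were under 5 FPKM. The coding length of members had a median of 1380 bases (195 genes with a length), against 1305 bases over all genes tested. Of the 199, 187 were found in the names table and 21 had a symbol there, and all others are given by identifier with no name or role.

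At 2 h the median difference of members on the log2(FPKM + 1) scale was −1.21 between AbfA and A773, −1.41 between 1542 and A773, −1.42 between AbfA and BglC and −1.59 between 1542 and BglC. The smallest of the 4 differences of a gene had a median of 1.08 in size and reached 3.87. It was at least 1 in 127 members, at least 2 in 9 and at least 3 in 1. In 173 members all 6 libraries of AbfA and 1542 lay below all 6 of A773 and BglC, a pattern that 6.34% of all genes tested showed and that the rule itself favours. BglC was above A773 in 146 of 199 members (median difference 0.22, against −0.10 over all genes tested), and AbfA was above 1542 by a median of 0.11.

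**Figure D1:**
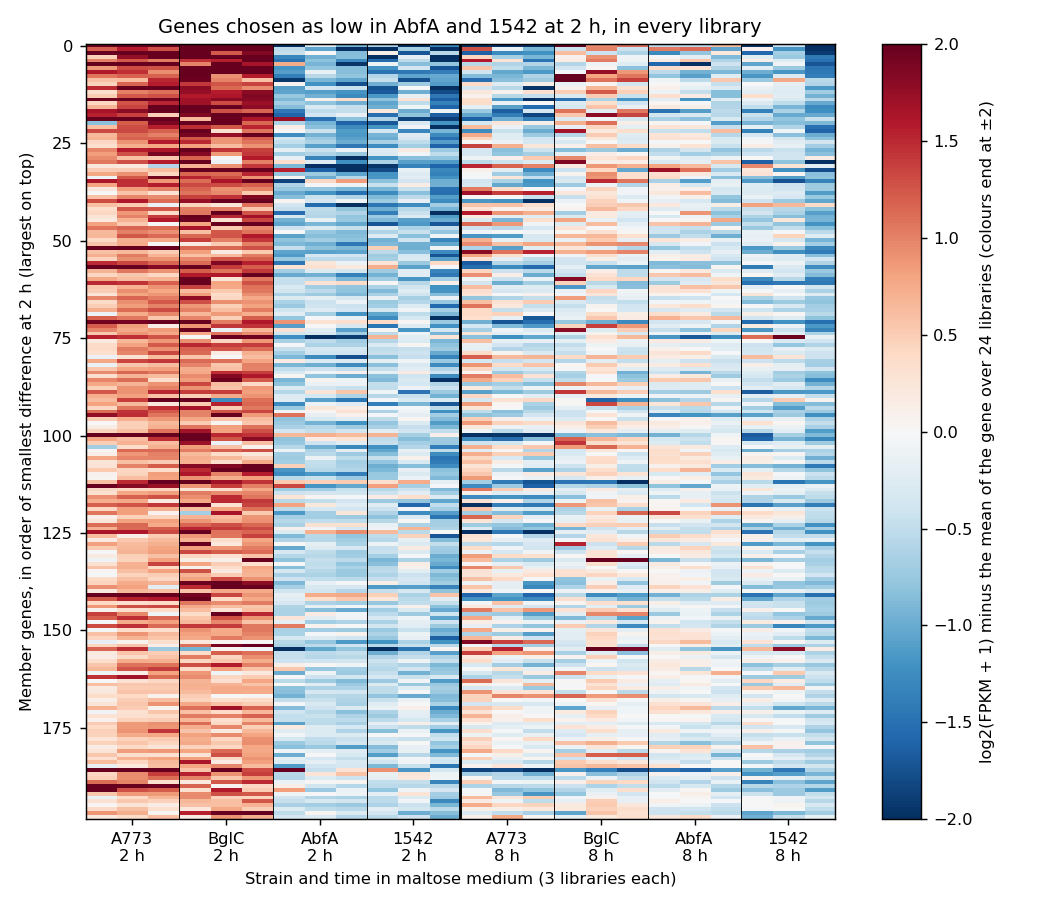
Heat map of all 199 members (vertical axis, ordered by the smallest difference at 2 h) in the 24 libraries (horizontal axis, grouped by strain and time). Colour gives log2(FPKM + 1) minus the gene's mean over all libraries. The 2 h libraries of A773 and BglC are high and those of AbfA and 1542 low, as the rule requires, while the 8 h libraries show less contrast.

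The libraries of each group did not hold the members at exactly the same level. The mean log2(FPKM + 1) over the 199 members was 6.15, 6.44 and 6.44 in the libraries of A773 at 2 h, and 6.64, 6.50 and 6.61 in those of BglC. AbfA had 4.99, 5.01 and 4.88, and 1542 had 4.86, 5.04 and 4.54. The means over all genes tested stayed between 4.56 and 4.84 in the 24 libraries. Replicate 3 of 1542 was the lowest of its group in 138 members at 2 h, and replicate 1 of A773 in 136. The range between the 3 libraries of a group was at least 1 (log2) for 24 members in A773, 47 in BglC, 39 in AbfA and 58 in 1542 at 2 h.

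The gene with the largest difference was mep20 (AN7962), which encodes a metalloprotease. Its 2 h libraries held 187, 221 and 393 FPKM in A773 and 279, 245 and 189 FPKM in BglC, but 7.38, 27.3 and 16.5 FPKM in AbfA and 20.3, 5.67 and 12.7 FPKM in 1542. All libraries of AbfA and 1542 were thus far below those of the other strains. At 8 h A773 was lowest with 2.20, 6.73 and 4.34 FPKM and BglC highest with 134, 63.6 and 72.1 FPKM, while AbfA held 22.3, 22.1 and 50.8 FPKM and 1542 held 4.45, 23.6 and 6.66 FPKM. AN5558, which stands in the list of proteases by identifier, had 565, 578 and 1070.1 FPKM in A773 and 1478, 749.5 and 568 FPKM in BglC at 2 h. The low strains held 97.9, 199 and 182 FPKM (AbfA) and 272, 111 and 182 FPKM (1542), with no overlap between the sides. The remaining gene of that list, lap1, was not a member, with means of 242, 433, 150.2 and 151 FPKM in A773, BglC, AbfA and 1542.

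Of 18 regulators of development 4 were members, where 2.16% of all genes tested were. The list as a whole had median 2 h differences from A773 of −0.08 in AbfA and 0.07 in 1542, against 0.04 and 0.05 over all genes tested. medA (AN6230) encodes a developmental regulator of conidiation. It had 307, 509 and 676 FPKM in A773 and 606, 543 and 581 FPKM in BglC at 2 h, against 238, 97 and 66.1 FPKM in AbfA and 116, 138 and 104 FPKM in 1542. The AbfA libraries were widely spread, and the highest of them was below the lowest of A773. flbE (AN0721), an upstream activator of conidiation, was at 208, 272 and 269 FPKM in A773 and 219.6, 236 and 274 FPKM in BglC. In AbfA it was at 122, 124 and 126 FPKM and in 1542 at 121, 153 and 118 FPKM, with no overlap. The others were AN1848 (means 627, 930.3, 213 and 211 FPKM in A773, BglC, AbfA and 1542) and AN5170 (40.7, 57.3, 17.3 and 12.1 FPKM), both entered in the list by identifier. brlA, the central activator of conidiophore formation, was not a member, with means of 194, 108, 131 and 101 FPKM in the same order. Nor was stuA, another developmental regulator, which had means of 317, 268, 455 and 438 FPKM and so lay higher in AbfA and 1542.

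Of 14 genes of cell wall synthesis and remodelling, the chitin synthase genes chsA (AN4566) and chsG (AN2523) were members, where 2.16% of all genes tested were. The 14 had median 2 h differences from A773 of −0.42 in AbfA and −0.24 in 1542, against 0.04 and 0.05 over all genes tested. chsA had 85.5, 140.4 and 187 FPKM in A773 and 284, 203 and 228 FPKM in BglC at 2 h, but 56.1, 46.4 and 41 FPKM in AbfA and 42.2, 58.1 and 31.8 FPKM in 1542. chsG, at a higher level per length, had 319, 437 and 459 FPKM in A773, 528, 495 and 503 FPKM in BglC, 192, 199 and 193 FPKM in AbfA and 190, 220 and 159 FPKM in 1542. The sides did not overlap for either gene. Other chitin synthase genes were not members, since chsB had means of 19.3, 22.6, 27.7 and 21.3 FPKM in A773, BglC, AbfA and 1542, and chsF had 101, 112, 66.8 and 68.9 FPKM. Outside that list, rlmA (AN2984) encodes a transcription factor of the cell wall integrity pathway and stood at 131 ± 22.5, 145 ± 22.2, 61.1 ± 2.87 and 65.9 ± 16 FPKM (mean ± SD, n = 3) in the same order. glfB (AN3113), which in Aspergillus fumigatus encodes a transporter of UDP-galactofuranose, a precursor of wall sugars, stood at 247 ± 26.7, 293 ± 36, 116 ± 15.2 and 132 ± 33.9 FPKM.

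The secretory pathway was represented by hacA (AN9397), the transcription factor of the unfolded protein response. At 2 h it had 953, 1187 and 1229 FPKM in A773 and 1887, 1462 and 1929 FPKM in BglC, against 415, 445 and 412 FPKM in AbfA and 376, 547 and 292 FPKM in 1542. The sides were well apart. FPKM over the whole gene do not separate spliced from unspliced hacA RNA, by whose splicing the factor is known to be activated. The other folding genes of that list were not members, with bipA at means of 656, 573, 503 and 365 FPKM, pdiA at 464, 407, 321 and 287 FPKM and clxA at 187, 159, 162 and 142 FPKM in A773, BglC, AbfA and 1542. pmt2 (AN5105) encodes a protein O-mannosyltransferase, which adds mannose to proteins on the secretory route. Its libraries held 241, 321 and 348 FPKM in A773, 324, 257 and 315 FPKM in BglC, 142, 132 and 126 FPKM in AbfA and 123, 158 and 128 FPKM in 1542. png1 (AN3787), a peptide N-glycanase that strips sugar chains from misfolded glycoproteins, had 199 ± 44.9, 197 ± 35.5, 77.3 ± 12.2 and 93.6 ± 28.3 FPKM (mean ± SD, n = 3). For both genes A773 and BglC had nearly equal means, and no library of AbfA or 1542 reached them.

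Further members have roles in transport, ion balance, stress and sterols. mdr1 (AN2300), a multidrug transporter, had 31.4, 66.5 and 85.3 FPKM in A773 and 92.5, 76.7 and 53.8 FPKM in BglC, against 34.2, 25.8 and 20.4 FPKM in AbfA and 21.8, 33.9 and 19.2 FPKM in 1542. Its lowest A773 library overlapped the low strains. The calcium pump gene pmcB (AN4920) had 155 ± 30.6, 202 ± 40.8, 81.7 ± 5.63 and 50.6 ± 7.18 FPKM in A773, BglC, AbfA and 1542, and cch1 (AN1168), a calcium channel of the plasma membrane, had 28.9 ± 8.12, 35.9 ± 7.68, 15.3 ± 1.46 and 15.7 ± 2.65 FPKM. The stress response regulator skn7 (AN3688) had 139.7 ± 31, 134 ± 20.8, 56.6 ± 6.18 and 75.5 ± 11.4 FPKM. erg2 (AN0451), a sterol isomerase, was the only member among 10 sterol synthesis genes, with 283 ± 83, 320.4 ± 48.3, 138 ± 26.7 and 145 ± 23 FPKM. Median 2 h differences of the 10 from A773 were −0.61 in AbfA and −0.57 in 1542, against 0.04 and 0.05 over all genes tested. The remaining members with a symbol were gta1 (means 87.9, 92.3, 35.6 and 30.2 FPKM in the same order), dspD (219, 252, 97.2 and 108 FPKM), fmaF (11.5, 13.2, 5.39 and 3.46 FPKM), gup1 (555, 882, 293 and 287 FPKM), abp2 (54, 66, 23.6 and 30.4 FPKM) and exgO (68.4, 63.9, 34.4 and 29.6 FPKM).

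**Figure D2:**
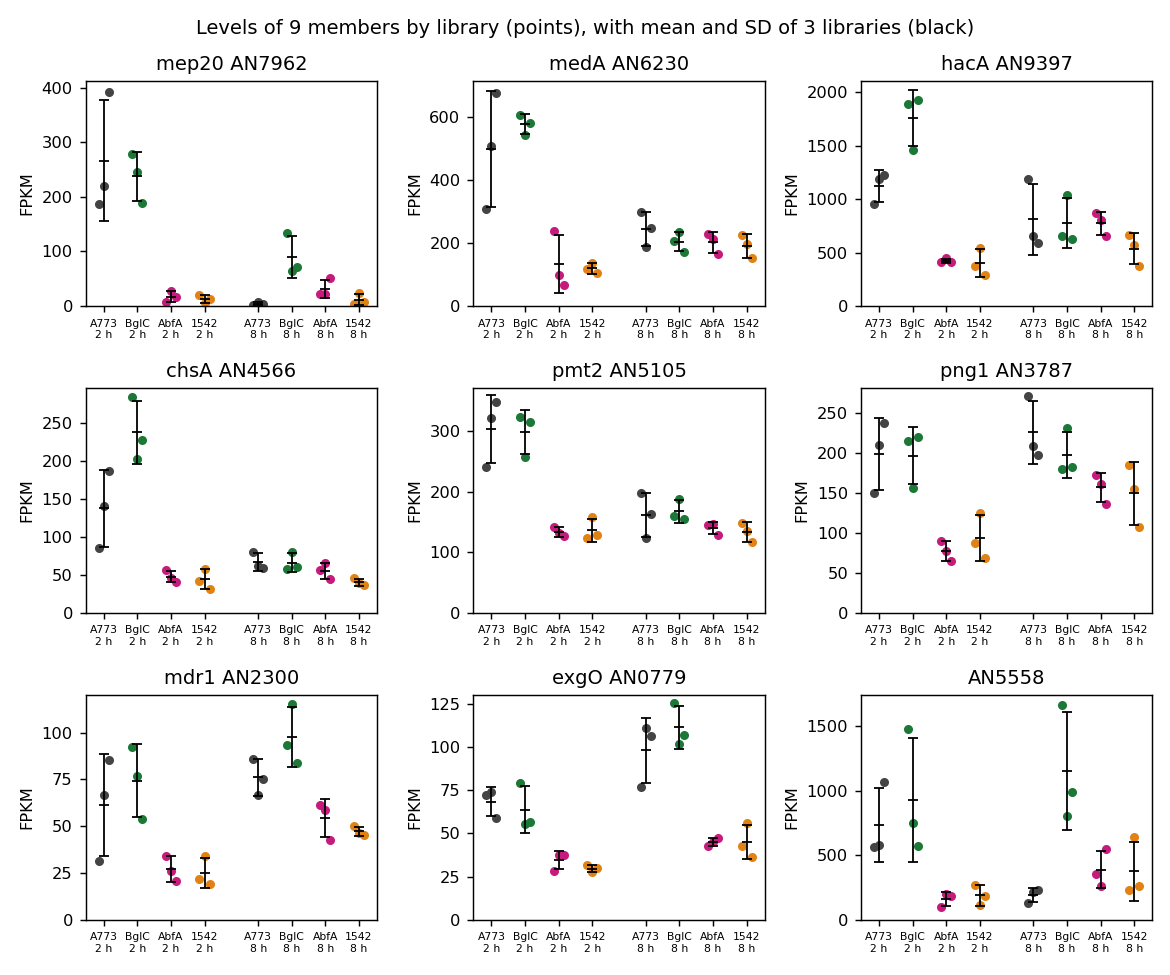
Levels of 9 members in every library (vertical axes, FPKM, each panel with its own scale) by strain and time (horizontal axes), with points for libraries and marks for the mean and SD of 3. The 2 h levels of mep20, medA and hacA are high in A773 and BglC and low in AbfA and 1542. At 8 h the strains overlap for medA, and A773 overlaps AbfA and 1542 for pmt2, while AbfA and 1542 lie below the others for mdr1 and exgO.

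Genes without a symbol made up most of the 10 with the largest differences. AN5659 had 162, 208 and 171 FPKM in A773 and 390.5, 633 and 659 FPKM in BglC at 2 h, against 47.8, 32.8 and 11.7 FPKM in AbfA and 10.1, 43.2 and 4.18 FPKM in 1542. AN5172 had 209, 513 and 842 FPKM in A773, 912, 633 and 697 FPKM in BglC, 60.7, 76.6 and 82.8 FPKM in AbfA and 32.4, 131 and 29.3 FPKM in 1542. The sides did not overlap, but the libraries of A773 were widely spread for AN5172. AN8737 was higher in A773 (326 ± 64.4 FPKM) than in BglC (138 ± 52.8), with 35 ± 33.1 FPKM in AbfA and 29.2 ± 9.32 in 1542. Lower levels were found for AN7349 (means 24.6, 28.8, 2.59 and 2.29 FPKM in A773, BglC, AbfA and 1542), AN3111 (23.1, 38.4, 4.07 and 3.45 FPKM), AN7732 (80.4, 184, 18 and 17.4 FPKM), AN3551 (11.7, 33.8, 2.17 and 0.849 FPKM) and AN6382 (55.8, 101, 13.1 and 13.1 FPKM). The BglC libraries of AN7349 held 60.3, 10.1 and 16.1 FPKM, so its mean there rests largely on replicate 1.

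Some members met the rule on means while single libraries crossed. AN7823, which stands in the sterigmatocystin list by identifier, had 37.4, 3.22 and 0.704 FPKM in AbfA, so that replicate 1 exceeded all libraries of A773 (17.4, 17.5 and 19.3 FPKM). AN2622, from the list of penicillin synthesis, had 97.9, 4.72 and 28.2 FPKM in BglC, so that replicate 2 of BglC was below all libraries of 1542 (12.3, 9.91 and 9.99 FPKM). AN3402, from the list of starch and maltose use, had 53.3, 8.55 and 9.57 FPKM in AbfA, and replicate 1 overlapped BglC (38.9, 55.2 and 42.5 FPKM).

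The most abundant members in A773 at 2 h had no symbol. AN2171 had 2728, 3349 and 3359 FPKM in A773 and 3594, 4509.8 and 4411 FPKM in BglC, against 1758, 1844 and 1749 FPKM in AbfA and 1628, 2244 and 1172 FPKM in 1542. AN4989 (means 2612, 1821, 969.9 and 960 FPKM in A773, BglC, AbfA and 1542), AN5213 (2143, 2718, 1143 and 879 FPKM), AN6700 (1546, 1359, 618 and 541 FPKM) and AN3585 (1211, 2413, 292 and 372 FPKM) were next. Just inside the threshold were AN3846 (smallest difference 0.81), AN2371 (0.81) and AN0732 (0.80), and just outside it AN0428 (0.79), AN9071 (0.79) and AN1714 (0.79). The means of AN0732 were 211, 245, 120.1 and 103 FPKM and those of AN0428 53.2, 55.8, 30.2 and 27.7 FPKM, so the rule parts genes with nearly equal differences.

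By the gene order of the names table (RefSeq, assembly ASM1142v1), 186 members could be placed, and 15 of them stood directly next to another member in 7 runs. The longest run held 3 genes, AN5312, AN11475 and AN5311. AN5312 had 107 ± 4.85, 54.9 ± 3.15, 13.9 ± 2.51 and 22.2 ± 10.7 FPKM (mean ± SD, n = 3) in A773, BglC, AbfA and 1542 at 2 h, AN11475 had 7.01 ± 0.917, 8.25 ± 2.24, 1.62 ± 1.32 and 2.30 ± 1.22 FPKM and AN5311 had 44.5 ± 9.06, 55.8 ± 9.61, 10.7 ± 0.994 and 16.3 ± 4.34 FPKM. Pairs included AN7961 with mep20, AN0722 with flbE, and AN6700 with AN6701. Whether reads were counted by strand is not given in the sources used here, so overlapping neighbours may share reads.

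At 8 h the levels of the members lay closer together across the strains than at 2 h. The mean log2(FPKM + 1) over the members at 8 h was 5.52, 5.23 and 5.07 in A773, 5.42, 5.70 and 5.40 in BglC, 5.38, 5.35 and 5.19 in AbfA and 5.12, 5.10 and 4.72 in 1542. The median 8 h level minus the 2 h level was −0.90 in A773 and −0.97 in BglC, but 0.40 in AbfA and 0.21 in 1542, where all genes tested had medians of 0.13, 0.08, 0.05 and −0.01. The 8 h level was below that at 2 h for 173 members in A773, 188 in BglC, 45 in AbfA and 71 in 1542. Since the rule used the 2 h values, these differences carry no test. A773 at 8 h was at or below the higher of the AbfA and 1542 means at 2 h for 68 members, and BglC for 47. Of the 21 members with a symbol, 6 were at least as high in A773 at 8 h as at 2 h by mean FPKM, namely exgO (98.3 against 68.4 FPKM), mdr1 (76 against 61.1), png1 (226 against 199), glfB (368 against 247), gup1 (604 against 555) and cch1 (31.6 against 28.9).

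**Figure D3:**
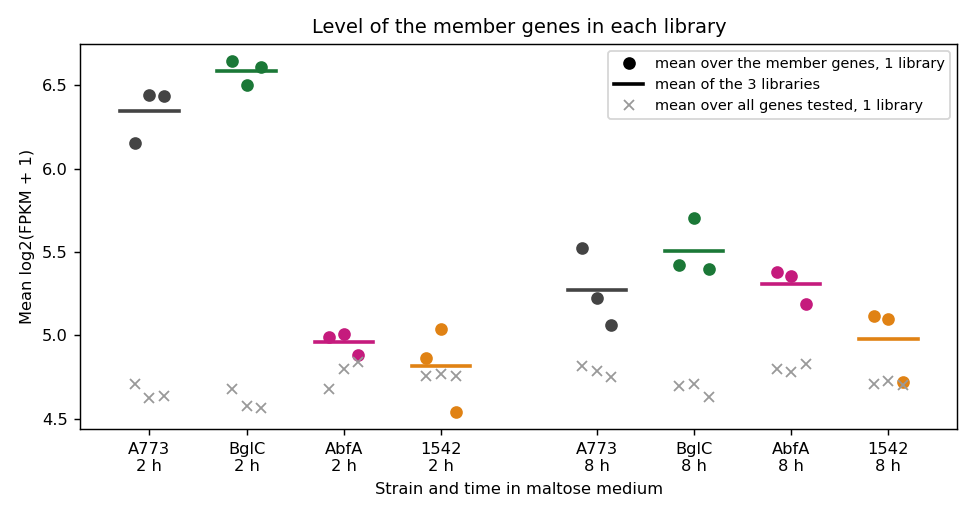
Mean log2(FPKM + 1) over the 199 members in each library (vertical axis) by strain and time (horizontal axis), with the mean over all genes tested for comparison. At 2 h the members lie between 6.15 and 6.64 in A773 and BglC and between 4.54 and 5.04 in AbfA and 1542, while at 8 h all strains lie between 4.72 and 5.70.

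The 8 h libraries took no part in the choice of members and were tested. The comparison asks which of the genes that were low early in AbfA and 1542 still differed later. Every adjusted p is from a two-sided limma test on log2(FPKM + 1) with Benjamini-Hochberg adjustment over 9201 genes, differences are log2 ± SE with n = 3 libraries per strain, and a gene was called at an adjusted p under 0.05. In bulk RNA, fewer cells of a type and less RNA per cell cannot be told apart.

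In 1542 the members leaned low at 8 h, more against BglC than against A773. Single libraries stood out at 8 h. Replicate 3 of 1542 was the lowest of its group in 151 members, replicate 1 of A773 the highest in 141 and replicate 2 of BglC the highest in 143. Against BglC, 51 of 199 members were called lower, where 8.6% of all genes tested were, and 0 were called higher, where 12% of all genes were. At an unadjusted p under 0.05, 2 members were higher by limma, and voom on the recovered reads called 0 higher and 57 lower. The median difference of the members was −0.39 against 0.06 over all genes tested, and 171 members were below BglC. The 0 higher became 1 without replicate 1 of BglC or replicate 3 of 1542. Against A773, 36 members were called lower (18.1% of members, near the background of 14.6%) and 8 higher (4.02%, background 7.62%), with a median of −0.30 against −0.09. That count of lower calls was 17 without replicate 3 of 1542 and 19 without replicate 1 of A773, and the count of higher calls was 5 without replicate 3 of A773, replicate 2 of 1542 or replicate 3 of 1542.

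AbfA showed no such lean against A773. Of 199 members 22 were called lower (11.1%), against a background of 19.1%, and 22 higher, against 13.9%, and the median difference was 0.02 (−0.06 over all genes). The lower count was 12 without replicate 1 of A773 and 13 without replicate 3 of AbfA, and the higher count was 13 without replicate 3 of A773. Against BglC, 37 members were called lower (18.6% of members), where the background was 7.8%, and 7 higher, where it was 16.2%, with a median of −0.07 against 0.09. The higher count was 2 without replicate 3 of BglC and 3 without replicate 1 or replicate 2 of AbfA. The 4 comparisons share the A773 and BglC libraries and are not independent. Directly compared, 1542 was called below AbfA for 15 members (7.54%), near the background of 6.51%, and above it for 1, with a background of 3.35%. The member median was −0.31 against −0.03 over all genes. Called or not, 164 members (82.4%) lay below AbfA in 1542, as did 54.8% of all genes. The lower count was 6 without replicate 1 of 1542 and 9 without replicate 1 or replicate 2 of AbfA, and the higher count was 7 without replicate 3 of 1542.

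BglC had more members called above A773 than the background share. At 8 h 39 members were called higher in BglC (19.6% of members, background 8.78%) and 15 lower (7.54%, background 24.1%), with a median of 0.10 against −0.14 over all genes. The lower count was 8 without replicate 1 of A773 and 9 without replicate 1 of BglC. Scaling the libraries by median-of-ratios moved the all-gene median from −0.14 to −0.003 and the share of lower among all calls from 73.3% to 50.3%, and the members then counted 50 higher and 9 lower with a median of 0.26, where 13.4% and 13.6% of all genes were called. The same scaling moved that share from 65.7% to 49.7% for 1542 against A773, with 28 members lower (background 10.2%) and 10 higher (10.4%). For 1542 against BglC the share went from 41.7% to 52.3%, with 62 members lower (background 10.9%) and 0 higher (9.97%). For AbfA against BglC it went from 32.5% to 50.8%, with 44 lower (background 12.1%) and 4 higher (11.7%). For 1542 against AbfA it went from 66% to 53.2%, with 14 lower (background 5.63%) and 2 higher (4.96%).

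**Figure D4:**
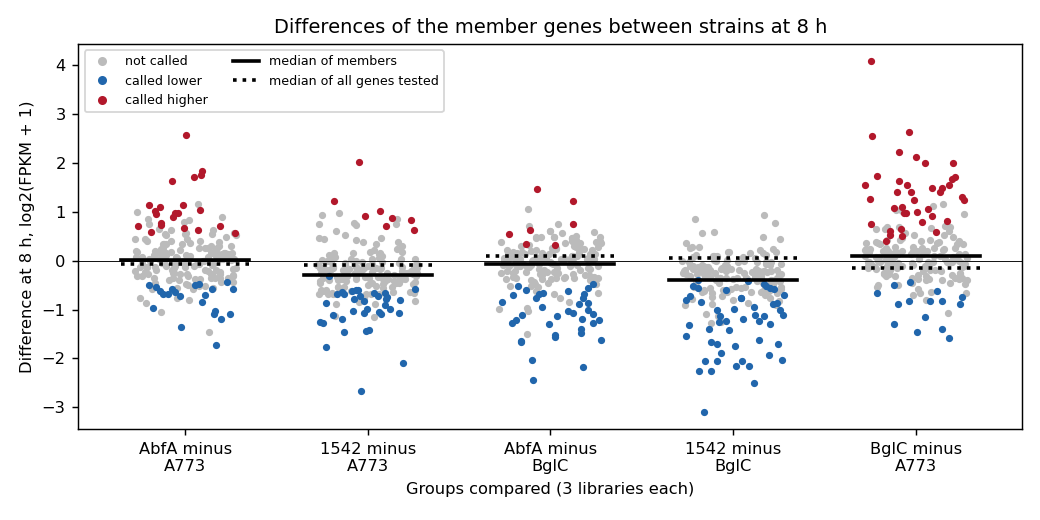
Differences of the 199 members at 8 h (vertical axis, log2(FPKM + 1)) in the comparisons of strains (horizontal axis), 1 point per gene, coloured where called lower or higher, with the median of the members and of all genes tested. The medians of 1542 against A773 and against BglC lie at −0.30 and −0.39, below those of all genes.

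Few members kept the full 2 h pattern at 8 h. In 12 members (6.03%) all 6 libraries of AbfA and 1542 lay below all 6 of A773 and BglC, as in 2.45% of all genes tested, and 94 members (47.2%) were called in none of the 4 comparisons of AbfA or 1542 with A773 or BglC, near the 45.8% of all genes tested. The 12 were AN2187, AN3143, exgO, AN10949, mdr1, glfB, AN7552, AN8718, AN7434, AN10782, AN3416 and AN3846. The thresholds of the rule were met at 8 h by 3 members (AN2187, AN3143 and exgO), where 0.326% of all genes met them, and 5 members were called lower in all 4 comparisons, where 1.02% of all genes were. Those 5 were AN2187, AN3143, exgO, AN10949 and mdr1.

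exgO (AN0779) was lower at 8 h in AbfA (42.9, 45.1 and 47.3 FPKM) and 1542 (42.7, 56 and 36.4 FPKM) than in A773 (76.8, 111 and 107 FPKM) and BglC (126, 102 and 107 FPKM), with no overlap. The differences from A773 were −1.09 ± 0.17 in AbfA (limma adjusted p = 0.0011) and −1.11 ± 0.17 in 1542 (adjusted p = 0.00095), and all 4 calls held in each alternative run. AN3143 had 23.7, 18.2 and 21.1 FPKM in A773 and 19.4, 23 and 23.7 FPKM in BglC, against 9.29, 11.3 and 8.49 FPKM in AbfA and 9.77, 12.5 and 6.98 FPKM in 1542. Its differences from A773 were −1.04 ± 0.18 (adjusted p = 0.0022) and −1.06 ± 0.18 (adjusted p = 0.0021), both held in each alternative. AN2187 had 20, 11.9 and 16.3 FPKM in A773, 8.87, 9.85 and 10.9 FPKM in BglC, 4.24, 3.52 and 4.43 FPKM in AbfA and 2.09, 1.58 and 1.29 FPKM in 1542, so that the sides did not overlap and 1542 was lowest. It differed from A773 by −1.73 ± 0.18 in AbfA (adjusted p = 0.00013) and by −2.67 ± 0.18 in 1542 (adjusted p = 9.9e-06), again in each alternative.

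The other members of that group differed less. mdr1 had 86, 66.5 and 75.4 FPKM in A773 and 93.4, 115 and 83.8 FPKM in BglC, against 61.5, 58.8 and 42.6 FPKM in AbfA and 50, 46.5 and 45.4 FPKM in 1542. Against BglC its differences were −0.84 ± 0.16 (adjusted p = 0.0031) and −1.02 ± 0.16 (adjusted p = 0.0010), held in each alternative. Between AbfA and A773 the difference of −0.49 ± 0.16 (adjusted p = 0.033) was not called in a fit on all 24 libraries (0.21), in a fit on the 6 libraries compared (0.051), without replicate 1 of A773 (0.11), without replicate 3 of A773 (0.083) or without replicate 3 of AbfA (0.12), and that of −0.67 ± 0.16 between 1542 and A773 (adjusted p = 0.011) was not called in a fit on all 24 libraries (0.12). AN10949 had 39.3 ± 3.05, 45.9 ± 9.71, 27.7 ± 3.65 and 22.6 ± 3.0 FPKM in A773, BglC, AbfA and 1542. Its difference of −0.50 ± 0.16 in AbfA against A773 (adjusted p = 0.034) was not called in a fit on all 24 libraries (0.089), without replicate 1 of A773 (0.099), without replicate 3 of A773 (0.085), without replicate 1 of AbfA (0.060) or without replicate 3 of AbfA (0.12).

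Among genes of the wall, chsA was lower at 8 h in 1542 (45.5, 38.8 and 36.3 FPKM) than in A773 (80.6, 61.2 and 59.4 FPKM), by 0.72 ± 0.17 (adjusted p = 0.013), and than in BglC (57.3, 80.7 and 60.7 FPKM), by 0.70 ± 0.17 (adjusted p = 0.016). The first was not called without replicate 1 of A773 (0.055) or without replicate 3 of 1542 (0.052), and the second not in a fit on all 24 libraries (0.063), without replicate 2 of BglC (0.061) or without replicate 3 of 1542 (0.054). In AbfA (56.2, 65.2 and 44.4 FPKM) chsA did not pass against A773 (−0.28 ± 0.17) or BglC (−0.26 ± 0.17). chsG had means of 238, 219, 219 and 216 FPKM in A773, BglC, AbfA and 1542, and rlmA had 91.2, 104, 103 and 89.4 FPKM, with no call for either. glfB was lower than in A773 (423, 304 and 377 FPKM) in AbfA (173, 191 and 149.9 FPKM) by 1.09 ± 0.19 (adjusted p = 0.0019) and in 1542 (221, 208 and 131 FPKM) by 1.00 ± 0.19 (adjusted p = 0.0035), held in each alternative. It was also lower in AbfA than in BglC (251, 292 and 251 FPKM) by 0.63 ± 0.19 (adjusted p = 0.032), not called without replicate 1 of BglC (0.051), without replicate 2 of BglC (0.096), without replicate 3 of BglC (0.061), without replicate 1 of AbfA (0.074) or without replicate 3 of AbfA (0.11).

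Of the members with a role in the secretory pathway, hacA and pmt2 had no call at 8 h and png1 had 1. hacA was at 809 ± 329.8, 775 ± 232, 774 ± 108 and 536 ± 144 FPKM in A773, BglC, AbfA and 1542, with −0.56 ± 0.29 in 1542 against A773 (adjusted p = 0.18). pmt2 was at 161, 167, 139.6 and 133 FPKM. png1 was lower in 1542 (186, 155 and 108 FPKM) than in A773 (271, 209 and 198 FPKM) by 0.61 ± 0.19 (adjusted p = 0.041), and was not called with no filter (0.055), after median-of-ratios scaling (0.067), in a fit on all 24 libraries (0.068), in a fit on the 6 libraries compared (0.084), without replicate 1 of A773 (0.14), without replicate 2 of A773 (0.051), without replicate 3 of A773 (0.056), without replicate 2 of 1542 (0.063) or without replicate 3 of 1542 (0.14). Among the folding genes that were not members, bipA was called higher than A773 in AbfA and BglC and lower in 1542 than in BglC (means 276, 392, 348 and 292 FPKM in A773, BglC, AbfA and 1542), and clxA higher than A773 in 1542 and BglC (113, 161, 134 and 161 FPKM).

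Among the regulators of development, medA (means 244, 204, 202 and 192 FPKM in A773, BglC, AbfA and 1542 at 8 h) and flbE (156, 126, 171 and 161 FPKM) had no call in any comparison, and neither had the stress regulator skn7 (61.3, 58.9, 61.7 and 67.2 FPKM). AN5170 was higher in BglC (31.6, 61.9 and 42.8 FPKM) than in A773 (18.1, 12.1 and 9.91 FPKM) by 1.68 ± 0.34 (adjusted p = 0.0035), held in each alternative. It was lower than in BglC in AbfA (19.8, 21.5 and 14.8 FPKM) by 1.20 ± 0.34 (adjusted p = 0.024), not called without replicate 2 of BglC (0.088), without replicate 3 of BglC (0.058), without replicate 1 of AbfA (0.055) or without replicate 3 of AbfA (0.085). In 1542 (26.3, 21.1 and 9.85 FPKM) it was lower than in BglC by 1.26 ± 0.34 (adjusted p = 0.022), not called in a fit on the 6 libraries compared (0.058), without replicate 2 of BglC (0.083), without replicate 3 of BglC (0.054) or without replicate 3 of 1542 (0.067). AN1848 was higher in BglC than in A773 by 1.00 ± 0.33 (adjusted p = 0.036), not called with no filter (0.053), without replicate 2 of A773 (0.085), without replicate 3 of A773 (0.13), without replicate 2 of BglC (0.12) or without replicate 3 of BglC (0.073).

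Against A773 the calcium genes differed in direction in AbfA at 8 h, and cch1 was lower in all 3 producing strains. cch1 was lower than in A773 (35.7, 26.9 and 32.4 FPKM) in AbfA (22.2, 23.7 and 17 FPKM) by 0.58 ± 0.15 (adjusted p = 0.014), not called without replicate 1 of A773 (0.051) or without replicate 3 of AbfA (0.055). It was lower in 1542 (22.4, 21.7 and 17.7 FPKM) by 0.59 ± 0.15 (adjusted p = 0.015), not called without replicate 1 of A773 (0.061), without replicate 3 of A773 (0.053) or without replicate 3 of 1542 (0.064). BglC (21.4, 24.1 and 20.2 FPKM) was lower than A773 by 0.51 ± 0.15 (adjusted p = 0.023), not called after median-of-ratios scaling (0.084), in a fit on all 24 libraries (0.053), without replicate 1 of A773 (0.083), without replicate 3 of A773 (0.069), without replicate 1 of BglC (0.051) or without replicate 3 of BglC (0.081). pmcB was higher in AbfA (93.7, 88.3 and 74.1 FPKM) than in A773 (65.5, 49.5 and 41.4 FPKM) by 0.72 ± 0.17 (adjusted p = 0.0081), held in each alternative. In 1542, at 45.4, 50.7 and 47.1 FPKM, pmcB did not pass against A773 (−0.10 ± 0.17). It was lower there than in BglC (59.6, 83.1 and 65.9 FPKM) by 0.52 ± 0.17 (adjusted p = 0.045), not called with no filter (0.059), in a fit on all 24 libraries (0.059), without replicate 2 of BglC (0.16), without replicate 3 of BglC (0.082), without replicate 1 of 1542 (0.13), without replicate 2 of 1542 (0.074) or without replicate 3 of 1542 (0.097).

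Several members were above A773 at 8 h. mep20 was 2.57 ± 0.54 higher in AbfA than in A773 (adjusted p = 0.0049) and 4.08 ± 0.54 higher in BglC (adjusted p = 0.00031), and lower in 1542 than in BglC by 3.09 ± 0.54 (adjusted p = 0.0021), each held in each alternative. AN2325 had 2.14, 4.25 and 4.06 FPKM in A773 but 13.1, 9.40 and 24.4 FPKM in AbfA (1.83 ± 0.30, adjusted p = 0.0014). AN4825 had 2.93, 4.11 and 2.25 FPKM in A773, 9.24, 12.2 and 17.7 FPKM in AbfA (1.76 ± 0.27, adjusted p = 0.0010) and 5.22, 11.4 and 9.61 FPKM in 1542 (1.22 ± 0.27, adjusted p = 0.0086). These calls held in each alternative. Both were also higher than A773 in BglC, by 2.23 ± 0.30 and 1.41 ± 0.27 (adjusted p = 0.00033 and 0.0028), again in each alternative. In A773 the means of AN2325 and AN4825 at 2 h were 32.2 and 96.6 FPKM. AN3515 was higher in AbfA (11.8, 5.98 and 7.61 FPKM) than in A773 (2.22, 1.81 and 1.36 FPKM) by 1.72 ± 0.38 (adjusted p = 0.0068), and AN5463 in 1542 (21, 38.6 and 8.15 FPKM) than in A773 (4.67, 3.31 and 3.94 FPKM) by 2.01 ± 0.45 (adjusted p = 0.0083), both in each alternative. AN3515 was also called higher in BglC than in A773, by 1.25. That call was lost in a fit on all 24 libraries (0.064) and in a fit on the 6 libraries compared (0.058). It was also lost without replicate 2 (0.053) or replicate 3 (0.088) of A773, and without replicate 2 (0.070) or replicate 3 (0.11) of BglC. Called higher than A773 in both AbfA and 1542 were 3 members (1.51%, background 4.79%), AN4825, AN6103 and AN1797, the last 2 of which are named after their values were seen.

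Some members were highest in BglC at 8 h. AN5558 had 1669, 803 and 990.1 FPKM there against 131, 210.5 and 229.6 FPKM in A773 (2.56 ± 0.41, adjusted p = 0.00098, held in each alternative). AbfA held 354, 262 and 547 FPKM, lower than BglC by 1.57 ± 0.41 (adjusted p = 0.018), not called without replicate 1 of BglC (0.057), without replicate 1 of AbfA (0.052) or without replicate 2 of AbfA (0.066). 1542 held 226, 639 and 261 FPKM, lower than BglC by 1.71 ± 0.41 (adjusted p = 0.013), not called without replicate 1 of 1542 (0.055). AN6382 (means 13.9, 69.1, 15.3 and 13.2 FPKM in A773, BglC, AbfA and 1542) and AN3551 (1.82, 9.17, 1.90 and 1.19 FPKM) differed by 2.12 ± 0.36 and 1.71 ± 0.37 between BglC and A773 (adjusted p = 0.0013 and 0.0048), held in each alternative. AN5659, AN5172, AN3111, AN8737 and AN7732, with large differences at 2 h, had no call between any strains at 8 h, and neither had the abundant AN2171, AN4989, AN5213, AN6700 and AN3585.

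Gene lists around the members were read at 8 h by their counts and medians, against A773, beside all-gene medians of −0.06 (AbfA) and −0.09 (1542) and the background shares above. AN3402, the member from starch and maltose use, was higher in 1542 (17.6, 18 and 18.7 FPKM) than in A773 (8.01, 12.1 and 6.07 FPKM) by 1.02 ± 0.24 (adjusted p = 0.011), not called in a fit on all 24 libraries (0.13). The 8 genes of that list counted 1 lower and 2 higher with a median of 0.15 in AbfA, and 0 lower and 4 higher with a median of 0.49 in 1542. The 14 genes of the cell wall counted 4 lower and 2 higher with a median of −0.20 in AbfA, and 3 lower and 2 higher with a median of −0.12 in 1542. The 18 regulators of development counted 1 lower and 5 higher with a median of 0.22 in AbfA, and 0 lower and 3 higher with a median of 0.08 in 1542. The 10 sterol synthesis genes counted 4 lower and 1 higher with a median of −0.26 in AbfA, and 1 lower and 0 higher with a median of −0.03 in 1542. The 4 genes of folding in the endoplasmic reticulum counted 0 lower and 1 higher with a median of 0.12 in AbfA, and 0 lower and 1 higher with a median of 0.11 in 1542. The 3 proteases counted 0 lower and 1 higher with a median of 1.00 in AbfA, and 0 lower and 0 higher with a median of 0.85 in 1542. BglC, with an all-gene median of −0.14 against A773, also had calls in these lists. Starch and maltose use counted 0 lower and 5 higher there (median 0.55), the cell wall 3 and 2 (−0.01) and the regulators 2 and 6 (0.19). Sterol synthesis counted 0 lower and 0 higher (−0.08), folding 0 and 2 (0.35) and the proteases 0 and 2 (2.56).

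Other lists held 1 member or none. The 15 tested genes of the sterigmatocystin cluster, with 1 member, counted 1 lower and 0 higher with a median of 0.07 in AbfA, and 0 lower and 0 higher with a median of 0.05 in 1542. The 2 of penicillin synthesis, with 1 member, counted 0 lower and 0 higher with a median of −0.27 in AbfA, and 0 lower and 0 higher with a median of −0.15 in 1542. No member came from the 17 genes of nitrogen uptake and use, which counted 6 lower and 3 higher with a median of −0.20 in AbfA, and 3 lower and 2 higher with a median of 0.08 in 1542. None came from 7 heat shock genes, with 0 lower and 6 higher with a median of 0.90 in AbfA, and 0 lower and 1 higher with a median of 0.61 in 1542. None came from 7 plant cell wall hydrolases, with 2 lower and 1 higher with a median of −0.24 in AbfA, and 3 lower and 1 higher with a median of 0.16 in 1542. None came from the 11 genes of the dba cluster, with 1 lower and 0 higher with a median of −0.95 in AbfA, and 0 lower and 11 higher with a median of 2.43 in 1542. BglC against A773 had an all-gene median of −0.14. There the heat shock genes counted 0 lower and 6 higher (median 0.92) and the dba cluster 11 lower and 0 higher (−2.61). Nitrogen use counted 9 lower and 0 higher in BglC (−0.39), and plant cell wall hydrolases 1 lower and 0 higher (−0.25). The sterigmatocystin cluster counted 1 lower and 1 higher in BglC, and penicillin synthesis 0 and 0.

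Markers of other cell types were present in all groups. The summed level of 9 conidiophore and spore markers, none at 0 in any library and none a member, ran at 2 h from 1491 to 4151 FPKM in A773, from 135 to 2684 in BglC, from 1316 to 1642 in AbfA and from 811 to 1716 in 1542, so that the strains overlapped. At 8 h it was 239 to 272 FPKM in A773, 85.6 to 1516 in BglC, 1970 to 3788 in AbfA and 592 to 796 in 1542. By that sum AbfA and 1542 then lay above A773, with 7 and 3 of the 9 markers called higher. The median difference of the 9 from A773 was 1.96 in AbfA but 0.04 in 1542. In 1542 the sum held mostly rodA and ivoB (means 358 and 245 FPKM, against 168 and 3.84 FPKM in A773). There abaA (−0.49), wetA (−0.65), pksP (−1.20) and dewA (−0.72) lay below A773, with none of them called. The gene pksP was entered in the list as wA, of which A773 carries the mutant allele wA3. Of the 3 markers of sexual development 1, AN7349, was itself a member, and their sum at 2 h was 184 to 208 FPKM in A773, 191 to 261 in BglC, 172 to 421 in AbfA and 256 to 311 in 1542. AN7388, another of the 3, lay the other way from AN7349, with means of 87.4, 43.1, 185 and 134 FPKM in A773, BglC, AbfA and 1542 at 2 h. At 8 h 2 of the 3 were called higher than A773 in AbfA, 1 in 1542 and 2 in BglC, and 0 lower. In BglC 1 of these calls was AN7349 (1.23 ± 0.43, limma adjusted p = 0.044). That call was lost with a pseudocount of 0.1 (0.052), with no filter (0.059), in a fit on all 24 libraries (0.094) and with the replicate block (0.069). It was also lost without replicate 1 (0.12), 2 (0.070) or 3 (0.080) of A773, and without replicate 1 (0.14) or 2 (0.0575) of BglC. Of the 3 genes listed for vegetative mycelium, 2 were called lower than A773 at 8 h in AbfA, 1 in 1542 and 0 in BglC, and 0 higher. The part of these cell types in the 8 h differences of the members was not tested.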

How the data were processed

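Poly(A) RNA was made into stranded libraries, per the labels' protocols. The authors deposited FPKM per gene and library. HTSeq 0.6.0 and SAMtools 0.1.18 appear in the submitters' processing notes, with no role or order given, as do DESeq2, FastQC and bcl2fastq 1.8.4. For the aligner and the genome build, nothing is given in the sources used here. Each library's FPKM values were whole multiples of what 1 read is worth (tolerance 0.005 reads, 100% of 10631 genes), which gave 7140121 to 32309718 reads per library.

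The members, and the gene lists, were chosen with earlier results of these data known. No 2 h contrast was tested. At 8 h, limma 3.58.1 (R 4.3.3) with trended moderation was fitted to log2(FPKM + 1) of 12 libraries for 9201 genes with at least 1 FPKM in at least 3 of 24 libraries, after a test on simulated data. The pseudocount of 1 understates changes of low genes. Intervals from replicates cover only the spread between these libraries. The comparison of 1542 with AbfA was added after seeing the data. Named genes were the 10 members with the largest smallest difference at 2 h, the 15 largest with a symbol or list entry, the 5 lower in all 4 comparisons, up to 5 higher at 8 h, those beside the threshold, the longest run of neighbours and the 5 most abundant. Other members with a symbol were named after their values were seen. The lists cover starch and maltose use, penicillin synthesis, proteases, cell wall, regulators of development, and markers of conidiophores, sexual development and mycelium. They also cover nitrogen use, heat shock, folding in the endoplasmic reticulum, the sterigmatocystin and dba clusters, plant cell wall hydrolases and sterol synthesis. Several genes were entered by identifier from general knowledge. Promoter sequences were not analysed here. Alternatives changed the pseudocount, the filter, the scaling, the libraries fitted, a replicate block, voom on recovered reads, and left out each library.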

Additional observations from a re-analysis of the deposited data

Results flagged for a closer look

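Members whose difference from A773 at 8 h was not the same in 1542 and AbfA were picked out by the test of 1542 against AbfA itself, which cancels A773 (limma adjusted p under 0.05, 3 libraries per strain). In that comparison 15 of 199 members were called lower in 1542 (background 6.51%) and 1 higher (background 3.35%), with a member median of −0.31 against −0.03 over all genes. The lower count was 9 without replicate 1 or replicate 2 of AbfA and 6 without replicate 1 of 1542, and the higher count was 7 without replicate 3 of 1542. The member that was higher in 1542 was AN5463, by 2.34 ± 0.45 (SE, adjusted p = 0.0089). AN3931 differed by −1.57 ± 0.45 (adjusted p = 0.049), AN2325 differed by −1.49 ± 0.30 (adjusted p = 0.010) and gta1 (AN4809) differed by −1.20 ± 0.31 (adjusted p = 0.033). AN2753 differed by −1.16 ± 0.19 (adjusted p = 0.0060), AN2669 differed by −1.12 ± 0.32 (adjusted p = 0.047) and AN7191 differed by −1.09 ± 0.22 (adjusted p = 0.011). AN0761 differed by −1.03 ± 0.25 (adjusted p = 0.023), AN2187 differed by −0.94 ± 0.18 (adjusted p = 0.0090) and AN6625 differed by −0.94 ± 0.25 (adjusted p = 0.038). pmcB (AN4920) differed by −0.82 ± 0.17 (adjusted p = 0.011), AN6754 differed by −0.73 ± 0.10 (adjusted p = 0.0025) and AN10782 differed by −0.70 ± 0.19 (adjusted p = 0.038). AN1894 differed by −0.63 ± 0.13 (adjusted p = 0.011), AN0412 differed by −0.60 ± 0.10 (adjusted p = 0.0060) and fmaF (AN6818) differed by −0.56 ± 0.15 (adjusted p = 0.038). The calls of AN2325, AN2753, AN7191, AN6754, AN0412 and AN5463 held in each alternative, and the others were lost in at least 1.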

How the results depend on the processing

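The number of members was 300 at a minimum difference of 0.6, where the limit of 300 applied, 127 at 1.0, and between 175 and 210 when a 2 h library was left out. With a library left out, members lower and higher ranged from 12 to 22 and from 13 to 25 (AbfA against A773), 17 to 38 and 5 to 8 (1542 against A773), 26 to 34 and 2 to 7 (AbfA against BglC), 37 to 48 and 0 to 1 (1542 against BglC), 8 to 18 and 27 to 38 (BglC against A773), and 6 to 14 and 1 to 7 (1542 against AbfA). In a fit on all 24 libraries the higher members were 5 (1542 against A773) and 3 (AbfA against BglC), and the lower ones 9 (1542 against AbfA). In fits on the 6 libraries compared 1 was higher in 1542 than in BglC and 3 than in AbfA. After median-of-ratios scaling 4 were higher in AbfA than in BglC, 9 lower in BglC than in A773 and 2 higher in 1542 than in AbfA. The other counts stayed within 1.5 times, and the cause of the moves was not tested. The 67 members followed one by one include some picked by their 8 h calls, and 41 of the 67 had the 120 calls. Of these calls, 71 held in each alternative and none reversed. Lost were 25 in the fit on 24 libraries, 14 on 6 libraries, 11 with no filter, 7 each with scaling, voom and the replicate block, 1 with a pseudocount of 0.1, and 164 of 720 with a library left out. Over all genes tested, correlations of deviations from the group means at 8 h ran from −0.27 to 0.306 over 18 same-number pairs. Pairs of other numbers ran from −0.323 to 0.317. These ranges do not settle whether replicate numbers pair the libraries for the members. Replicate 3 had the lowest member mean of each strain at 8 h (5.07 in A773, 5.40 in BglC, 5.19 in AbfA and 4.72 in 1542). With the replicate block lower and higher members counted 28 and 24 (AbfA against A773), 42 and 10 (1542 against A773), 38 and 10 (AbfA against BglC), 56 and 0 (1542 against BglC), 20 and 35 (BglC against A773) and 16 and 1 (1542 against AbfA). Low genes are limited by depth, since 1 read in 1 kb was worth up to 0.140 FPKM.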
